A study of Mus musculus with 80 samples.

Results

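Complex I and ATP synthase stand at the beginning and the end of oxidative phosphorylation in the mitochondrial inner membrane. Complex I takes electrons from NADH, passes them to ubiquinone and pumps protons, and ATP synthase lets protons flow back through its membrane rotor while its catalytic head makes ATP. The kidney is rich in mitochondria because tubule cells, those of the proximal tubule above all, use ATP to reabsorb salt and solutes. Most subunits of both machines are encoded in the nucleus, by genes named Nduf and Atp5, and those nuclear genes are described here in mouse kidney over age and sex. Of the 16896 spotted cDNA clones, 54 carried 1 gene symbol that began with Nduf or Atp5, and no clone with several symbols named such a gene. They stood for 44 genes: 22 subunits of complex I (25 clones), 17 genes of ATP synthase (24 clones), 4 complex I assembly factors (Ndufaf1, Ndufaf3, Ndufaf4 and Ndufaf6) and the pseudogene Ndufs5-ps.

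The samples were kidneys of 40 C57BL/6 mice, an inbred strain, all untreated and fed freely on regular chow. There were 5 males and 5 females in each of 4 age groups, called young (17 to 44 days), adult (169 to 194 days), middle-aged (476 to 499 days) and old (704 to 743 days). Each mouse was hybridised to 2 nylon filters with different clones, set A (18 of the clones described) and set B (36 of them). The deposited values are scores that count SDs above or below the average spot of the array, and a difference between groups is given in array SDs and cannot be read as a fold. The young group is mixed, since 5 of its 10 mice were only 17 to 21 days old. The labels name different mice, so groups were compared over mice. Whole kidney was used, and fewer cells of a type cannot be told apart from less RNA per cell.

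Some arrays need naming before the results. Averaged over its correlations with all remaining arrays of the same set, an array had a value between 0.888 and 0.965 (set A) or between 0.915 and 0.975 (set B). Those farthest below came from 5 mice: young males 1 and 5, adult male 4, adult female 5 and old female 4. The array of old female 4 in set B was the lowest of its set. For old male 2, aged 714 days by its title, sex and age fields, the description names another mouse, a male of 43 days. For many of the results, values without these mice are given as well. Over the 54 clones the old minus adult difference was also taken without old female 4, old male 2, adult male 4 or the 5 outlying mice together. In any of these cases it moved by more than 1.5 times or changed sign for 39 clones, and it changed sign for 14. Of 23 proximal tubule markers, 5 were on the arrays, among them Lrp2 and Miox, whose spots lay at percentiles 93.9 and 89.1 of the brightness of their sets. Brightness ranks spots and not transcripts, because spots differ in length and binding.

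Promoter sequence was available for 38 of the 44 genes (42 promoters), as the 250 bases before to 50 bases after the start in RefSeq on GRCm38.p6. Both strands were searched for 3 short motifs linked to mitochondrial genes: TGACCTTG, bound by estrogen-related receptors, GCGCATGCG, a core site of the factor NRF1, and AAGATGGC, a core site of YY1. TGACCTTG was in 0 of 24 Nduf promoters and 2 of 18 Atp5 promoters (Atp5g3 and Atp5l), against 1.56% of all 32851 promoters. GCGCATGCG was in 2 Nduf promoters (Ndufa8 and Ndufaf4) and 3 Atp5 promoters (Atp5g2, Atp5k and Atp5l), against 1.75% of all. AAGATGGC was in 4 Nduf promoters (Ndufc1, Ndufs4, Ndufs6 and Ndufs7) and 3 Atp5 promoters (Atp5j, Atp5j2 and Atp5pb), against 2.75% of all. GCGCATGCG and its reverse CGCATGCGC can overlap, and such a promoter was counted once. Windows of 60 bases from 4 ATP synthase promoters are printed to show each motif in place, 5′ to 3′ on the gene's strand, which is the minus strand for all 4, with the motif in capitals. They lie at chr2:73911345-73911404 (Atp5g3), chr9:44920743-44920802 (Atp5l), chr5:108434416-108434475 (Atp5k) and chr16:84835031-84835090 (Atp5j), all before the start of the gene.
Atp5g3: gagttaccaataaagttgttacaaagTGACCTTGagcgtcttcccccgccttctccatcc
Atp5l: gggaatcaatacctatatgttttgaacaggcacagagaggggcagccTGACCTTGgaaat
Atp5k: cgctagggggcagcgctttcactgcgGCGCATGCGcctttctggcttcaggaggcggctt
Atp5j: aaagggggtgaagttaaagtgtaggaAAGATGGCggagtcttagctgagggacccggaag

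Between adult and old kidneys, genes of both complexes were more often lower than higher in the old mice. The median difference over single genes was small against the spread of a gene between mice. Of the 22 complex I genes, 19 had a lower mean in old than in adult mice, with a median difference of -0.0415 array SD. Of the 17 ATP synthase genes, 12 did, with a median of -0.0490. Over all 16896 clones 8348 were lower, and the median was 0.000988. No member was called in this comparison by limma at an adjusted p under 0.05, where the background was also 0.0% of clones, and the lowest adjusted p of any member was 0.99969. At an unadjusted p under 0.05, 5 of the 54 member clones were lower (9.26%, against 1.26% of all clones) and 0 were higher (against 1.09%). Those 5 were 2 clones of Atp5b and 1 each of Atp5a1, Ndufaf1 and Ndufaf3, so they stand for 4 genes. Only 2 of these clones, both of Atp5b, had such a p without the 5 mice with outlying arrays.

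**Figure D1:**
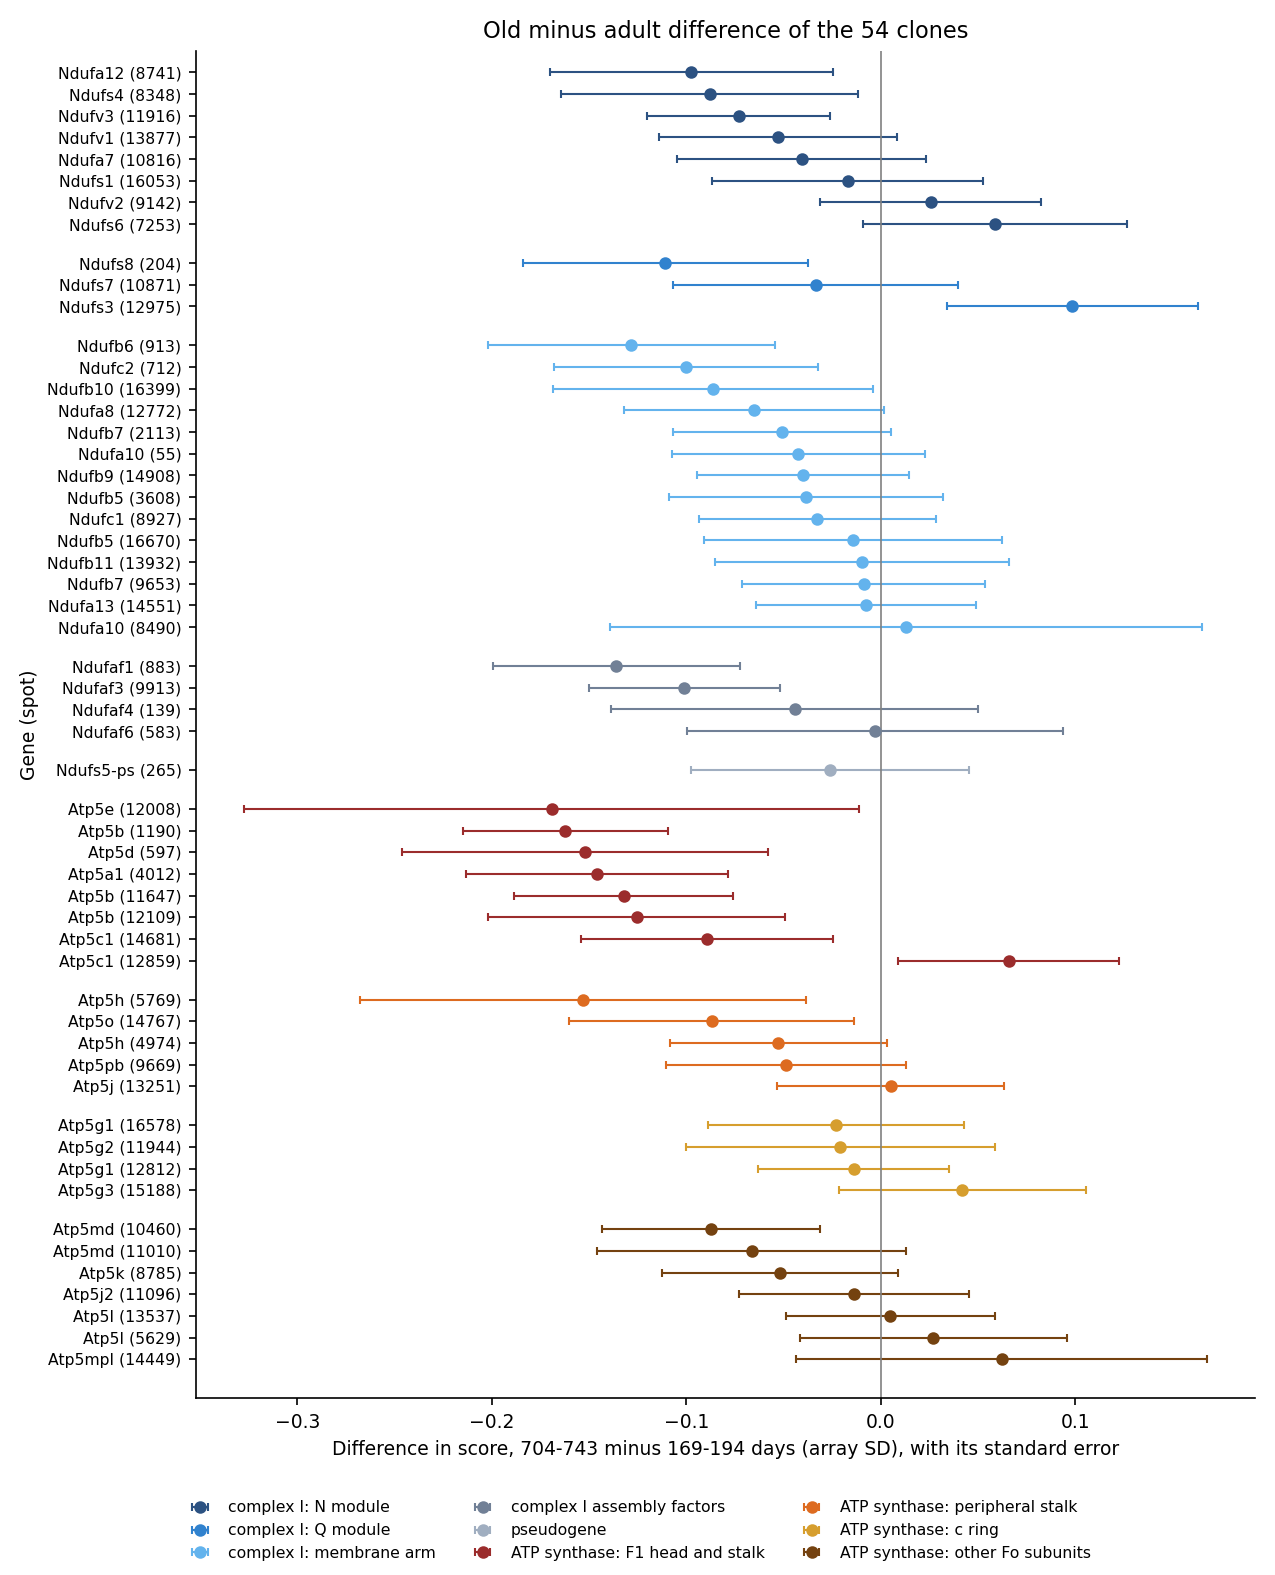
Difference in score between old (704 to 743 days) and adult (169 to 194 days) kidneys for each of the 54 clones, in array SDs on the x axis, with bars of 1 standard error from limma (10 mice per age). Clones are grouped by role, and 44 of the 54 points lie below 0.

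The mean over the genes of a complex, each set to its own mean over all mice, gives 1 value per mouse. For complex I this value was 0.00526 ± 0.0216 (SD, n = 10) in young, 0.0192 ± 0.0321 in adult, -0.00112 ± 0.0335 in middle-aged and -0.0233 ± 0.0330 in old mice. Old mice ranged from -0.0665 to 0.0244 and adult mice from -0.0331 to 0.0668, so the groups overlapped. The old minus adult difference was -0.0425 and was below 0 in 8 of 10 couples. A couple is an old and an adult mouse of the same sex and the same round of serial numbers in the titles. The labels do not say what these 5 rounds stand for. Within the 5 rounds it was -0.0267, -0.0996, -0.0307, -0.00507 and -0.0501, below 0 in each. For ATP synthase the value was -0.00715 ± 0.0561 in young, 0.0265 ± 0.0781 in adult, 0.00588 ± 0.0604 in middle-aged and -0.0252 ± 0.0591 in old mice (SD, n = 10). The difference of -0.0517 between old and adult was below 0 in 7 of 10 couples, and within the rounds it was -0.0297, -0.0798, -0.0211, -0.164 and 0.0364. The highest adult male reached 0.218 and the lowest old male -0.155, and all other mice lay between them. The highest was adult male 4, named above for an outlying array, and it belongs to the round with -0.164. The median was -0.000243 in adult and -0.0212 in old mice.

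**Figure D2:**
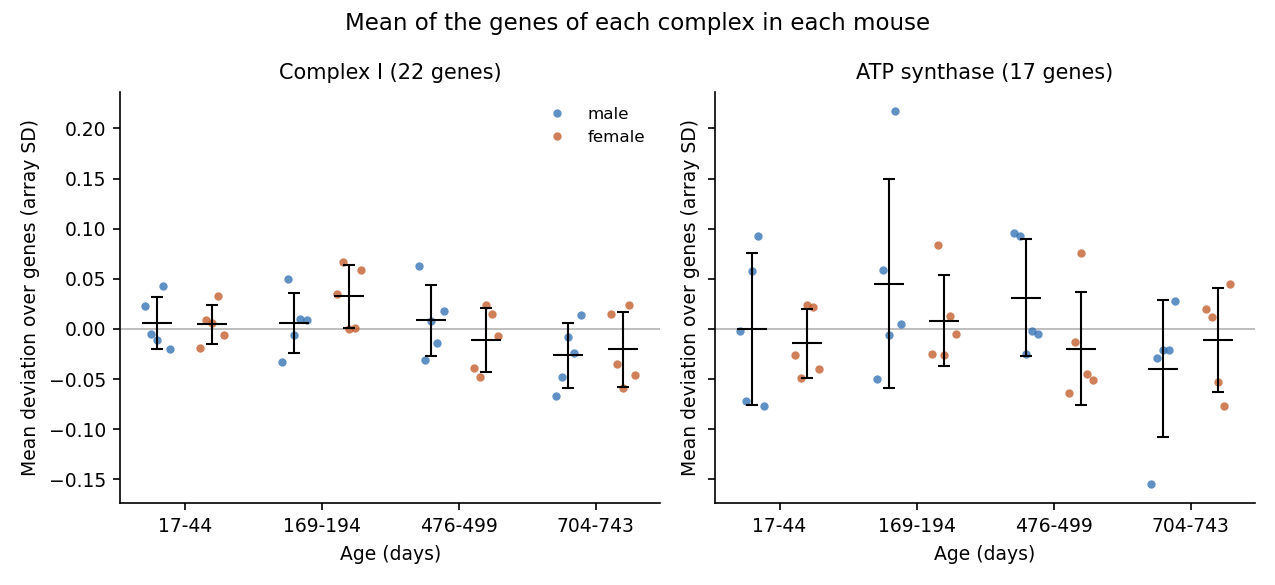
Mean deviation from the gene's own mean, averaged over 22 complex I genes (left) and 17 ATP synthase genes (right), in array SDs, against age group for males and females. Each point is 1 mouse, and black bars give the mean and SD of 5 mice. The old groups have the lowest means except for females in the ATP synthase panel, and the ages overlap in both panels.

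Leaving out mice moved the ATP synthase median and left the complex I median near its value. Without any 1 of the 40 mice the complex I median ran from -0.0543 to -0.0381, and without the 5 mice with outlying arrays it was -0.0493, with 18 of 22 genes lower. The ATP synthase median was -0.0271 without old female 4, -0.0773 without old female 1 and -0.0192 without the 5 mice, with 13 of 17 genes lower in the last case. Without old male 2 the medians were -0.0459 and -0.0536. From mouse to mouse the genes of a complex were weakly correlated. For the 22 complex I genes, after removing the 8 group means, the median correlation over their 231 pairs was 0.0211 across the 40 mice. Over the 136 pairs of ATP synthase genes it was 0.0618. These correlations are descriptions, and genes on a filter share its array.

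The catalytic head of ATP synthase is built of alternating alpha (Atp5a1) and beta (Atp5b) subunits around a central stalk of gamma (Atp5c1), delta (Atp5d) and epsilon (Atp5e). Of these 5 genes 4 were lower in old mice, and the median difference was -0.146, or -0.0529 without adult male 4 and -0.0437 without the 5 mice with outlying arrays.

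Atp5b, whose protein carries the catalytic sites, was measured by 3 clones. On spot 1190 the lowest, median and highest scores were 0.924, 1.07 and 1.14 in young mice, 0.982, 1.11 and 1.27 in adults, 1.04, 1.09 and 1.33 in middle age and 0.858, 0.910 and 1.20 in old mice. In the old mice the male scores were 0.862, 1.20, 0.931, 0.903 and 0.916 and the female scores 1.08, 1.01, 0.858, 0.894 and 0.895. Thus 7 of the 10 old mice lay below the lowest adult, and the highest old mouse was old male 2, whose description names a young male. The old minus adult difference was -0.162 ± 0.0528 (SE; limma adjusted p = 0.99969), below 0 in 9 of 10 couples. It was -0.193 without old male 2 and -0.173 without the 5 mice with outlying arrays.

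The other Atp5b clones were also lower in old mice. Spot 11647 had a range of 0.852 to 1.39 with a median of 1.17 in adults, and of 0.770 to 1.21 with a median of 1.04 in old mice. Its difference was -0.132 ± 0.0562 (SE), below 0 in 8 of 10 couples, and -0.102, with an unadjusted p no longer under 0.05, without old female 4, the lowest old mouse. Spot 12109 ran from 0.980 to 1.28 (median 1.20) in adults and from 0.345 to 1.21 (median 1.12) in old mice. Its difference was -0.126 ± 0.0765 (SE), and 8 of 10 couples were below 0. The value of 0.345 again belonged to old female 4, without which the difference was -0.0523, and the other old mice overlapped the adults.

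Against middle-aged mice, which did not enter the comparison with adults, the old mice were lower on all 3 Atp5b clones. The differences were -0.162 (spot 1190), -0.146 (spot 11647) and -0.213 (spot 12109), each with an adjusted p of 0.99974. Without old female 4 they were -0.155, -0.116 and -0.140. The old mice are the same in both comparisons. Middle-aged minus adult, the 3 clones differed by -0.000338, 0.0139 and 0.0872. The age F test over the 4 groups had its lowest p in ATP synthase on spot 1190 (F = 4.23, adjusted p = 0.99997), and over all clones 3.39% had an unadjusted p under 0.05 and 0.0% were called.

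Atp5a1 encodes the alpha subunit and was measured by 1 clone. Its scores had a median of 0.571 (0.482 to 0.824) in young, 0.727 (0.520 to 1.02) in adult, 0.719 (0.597 to 0.924) in middle-aged and 0.631 (0.442 to 0.776) in old mice. All ages overlapped, and the adult and middle-aged medians were the higher ones. Old minus adult was -0.146 ± 0.0676 (SE), with 7 of 10 couples below 0. Without the 5 mice with outlying arrays it was -0.141, and without adult male 4 alone -0.114, and in both cases the unadjusted p was no longer under 0.05.

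The small central stalk subunits were measured less precisely. Atp5e differed by -0.169 ± 0.158 (SE) and Atp5d by -0.152 ± 0.0941, and 1 adult male reached 0.844 on the Atp5d clone while the other mice of its age stayed at or below 0.202. Those standard errors are of the order of the differences. Without adult male 4 the differences were -0.0329 for Atp5e and -0.0529 for Atp5d. The 2 clones of Atp5c1, the gamma subunit that turns inside the head, disagreed in direction, with 0.0658 ± 0.0568 on spot 12859 and -0.0895 ± 0.0647 on spot 14681. They were 0.0435 without old male 2 and -0.0366 without old female 4.

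**Figure D3:**
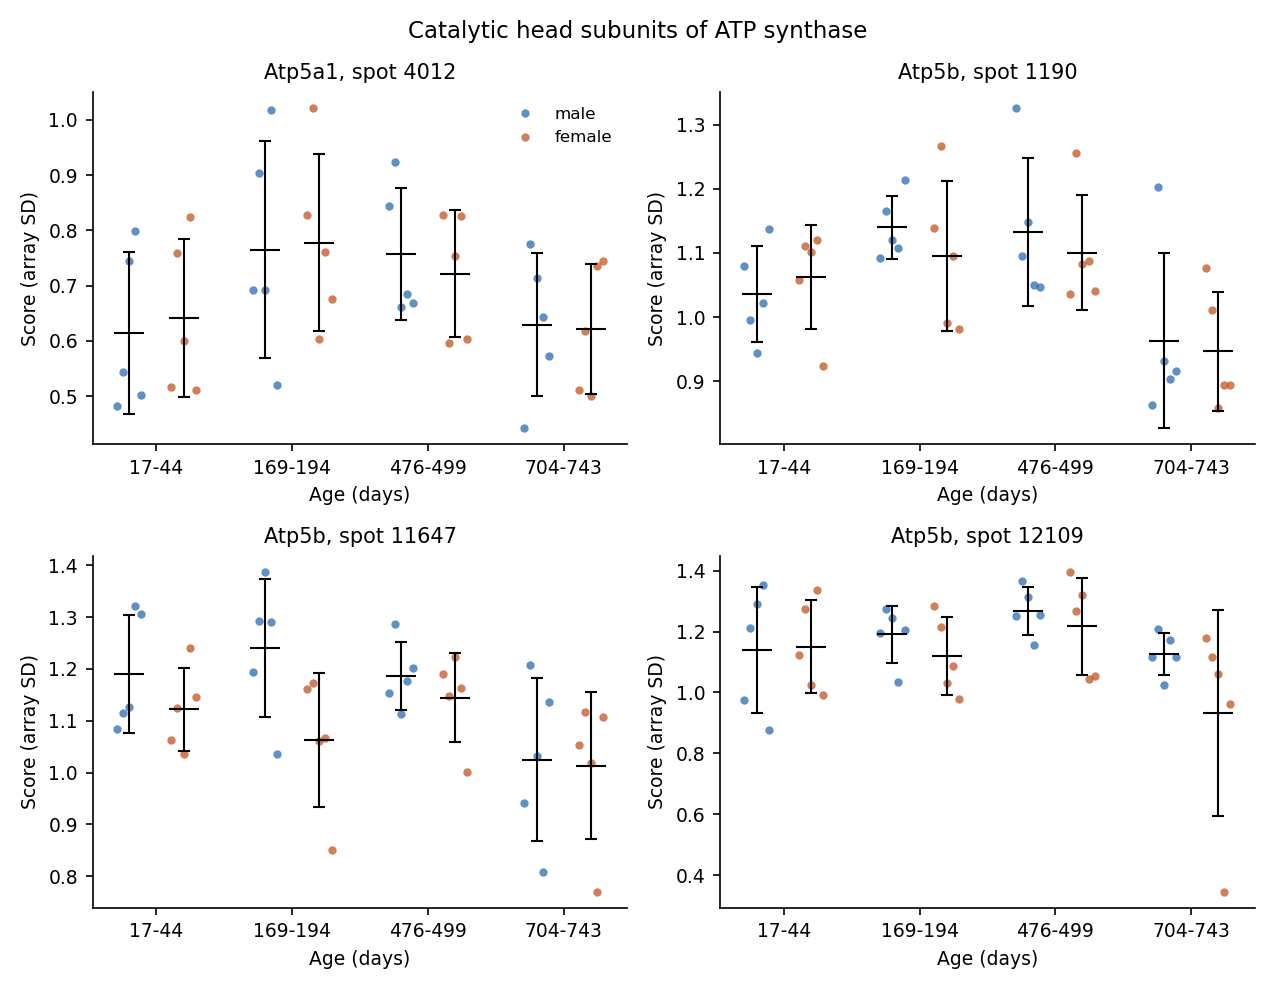
Scores (y axis, array SD) of the Atp5a1 clone and the 3 Atp5b clones against age group, for males and females. Each point is 1 mouse and black bars give the mean and SD of 5 mice. On spot 1190 old mice have the lowest means in both sexes (0.963 in males and 0.947 in females), with 1 old male at 1.20.

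The peripheral stalk holds the head still against the rotor. Its genes Atp5h (subunit d), Atp5o (the oligomycin sensitivity protein) and Atp5pb (subunit b) were lower in old mice, with differences of -0.153 ± 0.115 (SE), -0.0870 ± 0.0732 and -0.0490 ± 0.0617, and Atp5j (coupling factor 6) differed by 0.00491 ± 0.0585. The second Atp5h clone, spot 4974, gave -0.0527. On the first, spot 5769, the difference was -0.362 in males and 0.056 in females, and their difference of -0.418 ± 0.230 had an unadjusted p above 0.05. None of these peripheral stalk differences had a p under 0.05 with both sexes together. The Atp5o difference was -0.0149 without old female 4, and that of Atp5h on spot 5769 was -0.0471 without the 5 mice with outlying arrays.

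The c ring is the proton-driven rotor, and Atp5g1, Atp5g2 and Atp5g3 encode precursors of the same mature c protein. The transcripts are related, and cross-binding of spotted cDNA between them cannot be checked from the scores. Old minus adult was -0.0231 ± 0.0657 (SE) for Atp5g1, with -0.0141 on its other clone, -0.0209 ± 0.0793 for Atp5g2 and 0.0418 ± 0.0635 for Atp5g3. Old female 4 had the lowest Atp5g3 score of its group, 0.644. Without that mouse the Atp5g3 difference was 0.0922 and its slope with age 0.0796 per year, where the slope with all mice was 0.0514. Adult male 3 had the lowest adult score, 0.661, and without it the Atp5g3 difference was 0.000311.

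The other membrane subunits lie around the ring and tie ATP synthases into dimers. Atp5md (also known as DAPIT) differed by -0.0664 ± 0.0795 on its brighter clone and -0.0875 on the other, Atp5k (subunit e) by -0.0518 ± 0.0607 and Atp5j2 (subunit f) by -0.0139 ± 0.0590 (SE). Atp5l (subunit g) differed by 0.00486 on one clone and 0.0270 on the other. Atp5mpl, a small proteolipid subunit, had a difference of 0.0620 ± 0.105 that rested on old female 4, the highest old female at 0.685: without that mouse it was -0.0455. The differences of Atp5k and of the brighter Atp5md clone were -0.0169 and -0.0271 without it. No gene of this group had a p under 0.05.

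In complex I, the N module is the arm tip where NADH is oxidised. Of its 8 genes 6 were lower in old mice, with a median of -0.0468. Ndufv1, which binds NADH and the flavin, differed by -0.0530 ± 0.0611 (SE), Ndufv2, an iron-sulfur subunit, by 0.0256 ± 0.0568 and Ndufs1, the largest iron-sulfur subunit, by -0.0171 ± 0.0696. Among the accessory subunits of the module, Ndufa12 differed by -0.0975 ± 0.0727, Ndufs4 by -0.0881 ± 0.0761, Ndufv3 by -0.0732 ± 0.0470, Ndufa7 by -0.0407 ± 0.0640 and Ndufs6 by 0.0587 ± 0.0680. None had an unadjusted p under 0.05, and Ndufv3 had the lowest of them. Without the 5 mice with outlying arrays the median was -0.0209 and Ndufv3 differed by -0.0473. Ndufs6 differed by 0.0113 without adult male 4 and 0.0997 without adult male 2, and Ndufv2 by -0.000449 without adult male 2. Ndufs4 differed by -0.0327 without old male 2, and Ndufs1 by 0.0229 without old female 4.

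The Q module passes electrons to ubiquinone, and 2 of its 3 genes measured were lower in old mice. Ndufs8, an iron-sulfur subunit, differed by -0.111 ± 0.0732 (SE), and Ndufs7, which carries the last iron-sulfur cluster before ubiquinone, by -0.0335 ± 0.0732. Without old male 4 the Ndufs8 difference was -0.0692. Ndufs3 went the other way, at 0.0983 ± 0.0646. Its scores ran from -0.550 to -0.155 (median -0.391) in adults and from -0.560 to 0.168 (median -0.285) in old mice, with old female 4 highest. Without that mouse the Ndufs3 difference was 0.0531.

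The membrane arm pumps the protons, and all its subunits measured here are accessory ones encoded in the nucleus. With both sexes together, all 11 genes were lower in old mice by their brightest clone, with a median of -0.0424, and none had a p under 0.05. In males alone 4 of the 11 were lower (median 0.0037), and in females alone 10 (median -0.0957). Over both sexes Ndufb6 had the largest difference at -0.128 ± 0.0737 (SE), and 9 of 10 couples were below 0. Its lowest, median and highest scores were -0.493, -0.338 and -0.133 in adults and -0.692, -0.420 and -0.293 in old mice, so the ranges overlapped. Ndufc2 followed at -0.100, Ndufb10 at -0.0864, Ndufa8 at -0.0653, Ndufb7 at -0.0510, Ndufa10 at -0.0424, Ndufb9 at -0.0402, Ndufb5 at -0.0386, Ndufc1 at -0.0327, Ndufb11 at -0.0097 and Ndufa13 at -0.00753. The standard errors of those 10 genes ran from 0.0543 to 0.0823. Without adult male 4, Ndufb11 was at 0.0305 and Ndufa13 at 0.00154, and 9 of the 11 genes were lower. The second clones of Ndufb5 and Ndufb7 gave -0.0145 and -0.00886 and that of Ndufa10 gave 0.0127. Across both complexes, 7 of the 9 genes with several clones had the same sign on each in this comparison.

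Assembly factors build complex I and are absent from the finished enzyme, and all 4 were lower in old mice, or 2 of 4 without the 5 mice with outlying arrays. Ndufaf1, which works on the membrane arm, ran from 0.364 to 0.794 (median 0.564) in adults and from 0.230 to 0.521 (median 0.437) in old mice. Its difference was -0.136 ± 0.0633 (SE), with 8 of 10 couples below 0, and against middle-aged mice it was -0.148. The lowest old score was that of old female 4 and the highest adult score that of adult male 4. Without the 5 mice with outlying arrays the old minus adult difference was -0.112, with an unadjusted p no longer under 0.05. Ndufaf3 differed by -0.101 ± 0.0491, on a clone at brightness percentile 12.8 of its set, and its p was no longer under 0.05 without those mice either. Ndufaf4 differed by -0.0444 and Ndufaf6 by -0.0033, and Ndufs5-ps, a pseudogene related to the subunit gene Ndufs5, by -0.0261. These 3 differences were 0.0400, 0.00972 and 0.0253 without the 5 mice. In the comparison of old with middle-aged mice, 4 member clones (7.41%) were lower at an unadjusted p under 0.05, against 1.01% of all clones: Ndufaf1 and the 3 clones of Atp5b. No clone of any gene was called there (0.0%), and 16 of 22 complex I and 12 of 17 ATP synthase genes were lower. Over all 16896 clones 8866 were lower there, with a median of -0.00422.

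Between young and adult kidneys the medians of both complexes lay near 0 and changed sign with the weighting of arrays. Of complex I genes 14 of 22 were higher in adults (median 0.00599), and of ATP synthase genes 12 of 17 (median 0.0112), while over all clones 8622 of 16896 were higher and the median was 0.0022. With arrays weighted by quality the medians were -0.00907 and -0.0157, and the ATP synthase median was -0.00167 without young male 2. No clone was called by limma (0.0% of all). At an unadjusted p under 0.05, 2 member clones were higher (against 2.44% of all clones) and 1 was lower (against 2.65%), shares of 3.7% and 1.85%.

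The 2 higher clones were Atp5md on spot 10460, at 0.130 ± 0.0559 (SE; 9 of 10 couples above 0), and Atp5a1, at 0.143 ± 0.0676 (SE; 8 of 10 couples). The other Atp5md clone gave 0.0100, and without the 5 mice with outlying arrays the Atp5a1 difference was 0.0833. Adult and young mice overlapped on both: the Atp5md scores ran from 0.815 to 1.21 in young and from 0.904 to 1.29 in adult mice. The next lowest p of a higher ATP synthase clone, not under 0.05, was that of Atp5h on spot 5769, at 0.170 ± 0.115 (SE), or 0.0879 without those 5 mice. The lowest p values among ATP synthase clones in the other direction were those of Atp5j2 (-0.0432), Atp5l on spot 5629 (-0.0434) and Atp5g1 on spot 16578 (-0.0413). They were -0.0119 without young male 5, -0.0188 without young male 1 and -0.0100 without young male 2. The other clone of Atp5l, spot 13537, was higher in adults, by 0.0490, and that of Atp5g1 gave -0.00209. The comparison of old with adult mice uses the same adults.

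In complex I the lower clone was Ndufa10 on spot 55, at -0.137 ± 0.0651 (SE), with 7 of 10 couples below 0 and -0.111 on its other clone. Ndufc2 (-0.0876) and Ndufb7 on spot 2113 (-0.0641) followed in that direction. The other Ndufb7 clone, spot 9653, gave 0.0178. Across both complexes, 6 of the 9 genes with several clones had the same sign on each in adult minus young mice. The complex I clones higher in adults with the lowest p were Ndufa7 (0.112), Ndufb11 (0.128) and Ndufv1 (0.0887). Ndufb11 was at 0.0562 and Ndufb7 on spot 2113 at -0.0268 without the 5 mice with outlying arrays. Ndufv1 was at 0.0386 with arrays weighted by quality, and Ndufc2 at -0.0552 without young female 5 and -0.145 without the mice of 17 to 21 days. Without the 5 mice of 17 to 21 days the only member clone with a p under 0.05 was Atp5a1, at 0.183. In that setting 1.85% of all clones were higher at that level.

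Between adult and middle-aged mice no member clone had a p under 0.05 in either direction, where 1.23% of all clones did and 0.0% were called. Of complex I genes 14 of 22 were lower in middle age (median -0.0174) and of ATP synthase genes 11 of 17 (median -0.0229). Over all 16896 clones 8049 were lower, with a median of 0.00361. The lowest p values belonged to Ndufc2 (-0.111) and Ndufs7 (0.0578) in complex I, and to Atp5h on spot 5769 (-0.187) and Atp5g3 (0.0853) in ATP synthase. They moved to 0.0325 for Ndufs7 without adult female 5, -0.0934 for Atp5h without the 5 mice with outlying arrays and 0.0439 for Atp5g3 without adult male 3. The ATP synthase median was 0.00592 without adult male 4, and the complex I median 0.000618 without the 5 mice with outlying arrays.

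Over all 4 ages, a slope per year with sex as a second term had a p under 0.05 for 5 lower member clones (9.26%, against 2.16% of all) and 1 higher one (1.85%, against 3.04%), with 0.0% called. On the values as deposited there were 2 lower clones (Ndufc2 and Atp5b, against 2.12% of all clones). Without the 5 mice with outlying arrays there was 1 (Ndufc2, against 2.17%). The 5 lower ones were Ndufc2 (-0.101 per year), Ndufa10 on spot 55 (-0.0713), Ndufaf1 (-0.0637), Atp5b on spot 11647 (-0.0618) and Ndufb7 on spot 2113 (-0.0537). The higher one was Ndufs3 (0.0652 per year), at 0.0395 without old female 4. Ndufc2, a small subunit at the base of the membrane arm, had medians of -1.20 in young, -1.21 in adult, -1.31 in middle-aged and -1.31 in old mice, with ranges of -1.30 to -0.856, -1.41 to -1.07, -1.63 to -1.03 and -1.51 to -1.16. The steps between neighbouring ages were smaller than these ranges. Its clone lay at brightness percentile 8.07 of set A, so most spots were brighter. Its age F test (F = 3.80) had an unadjusted p under 0.05 and an adjusted p of 0.99997.

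No member was called between males and females. Of complex I genes 9 were higher in males and 13 lower (median -0.00692, but 0.004 with arrays weighted by quality and 0.00601 without young male 5), and of ATP synthase genes 13 were higher and 4 lower (median 0.00799), against 8307 of 16896 clones higher and a median of -0.00117. Over all clones 18 were called by limma (0.107%), and 0 of the 54 members were among them. No member had an unadjusted p under 0.05 in either direction, where 1.76% of all clones were higher and 2.72% lower at that level. With arrays weighted by quality, 3 members were lower at that level (Ndufa10 on spot 55, Atp5g3 and Ndufb10, against 4.33% of all clones). In that setting 1 was higher (Ndufa8, against 3.40%), and no member was called.

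The complex I clones with the lowest p in males minus females were Ndufa10 on spot 55 (-0.0898 ± 0.0460, SE), Ndufb10 (-0.0814) and Ndufa7 (-0.0398) among the lower ones. The second clone of Ndufa10 was higher in males, by 0.102, and 7 of the 9 genes with several clones had the same sign on each. Among the clones higher in males the lowest p values were those of Ndufc2 (0.0919 ± 0.0479), Ndufa8 (0.0667) and Ndufv2 (0.0543). Without young male 5 Ndufa8 was at 0.0387 and Ndufv2 at 0.0299, without young male 2 Ndufa7 was at -0.0212, and on the values as deposited Ndufb10 was at -0.0425. In ATP synthase they were Atp5g3 (-0.0795 ± 0.0449), Atp5mpl (-0.116) and Atp5g1 on spot 12812 (-0.0341), and, higher in males, Atp5b on spot 11647 (0.0749 ± 0.0398), Atp5e (0.181) and Atp5b on spot 12109 (0.0769). The second clone of Atp5g1 gave 0.00769. Without old female 4 the differences were -0.0621 for Atp5mpl, -0.0188 for Atp5g1 and 0.0402 for Atp5b on spot 12109. Atp5e was at 0.113 without adult male 4 and was above 0 in 9 of 20 couples. Atp5mpl was at -0.0198 and Atp5b on spot 11647 at 0.0422 without the 5 mice with outlying arrays. Without the 5 mice with outlying arrays, p was under 0.05 for 2 members, both lower in males: Ndufa10 on spot 55 (-0.107) and Atp5g3 (-0.0975). In that setting 3.02% of all clones were lower at that level, and neither member was called. The mean over complex I genes was -0.00145 ± 0.0322 in males and 0.00145 ± 0.0348 in females (SD, n = 20). That over ATP synthase genes was 0.00911 ± 0.0794 and -0.00911 ± 0.0451. Within the 5 rounds of serial numbers, males minus females differed in the ATP synthase mean by -0.0040, 0.0043, -0.0037, 0.0939 and 0.0007. The round with 0.0939 holds adult male 4, which was at 0.218.

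The old minus adult difference was then compared between the sexes. For complex I it had a median of 0.001 in males, with 10 of 22 genes lower, and of -0.0651 in females, with 16 of 22 lower. The mean over the genes was -0.0323 in males, of the other sign than the median, and -0.0526 in females. For ATP synthase 14 of 17 genes were lower in old males (median -0.0635) and 9 of 17 in old females (median -0.0502). The mean over these genes was -0.0846 in males and -0.0188 in females. The male value includes adult male 4, at 0.218. Adult males had a mean of 0.0450 but a median of 0.00497, and old males a mean of -0.0397 and a median of -0.0213. The sex difference of these lists was not tested. For single clones it was: 4.49% of all clones had an unadjusted p under 0.05 and 0.0% were called. Of the 54 members 3 had such a p, a share close to that of all clones.

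The member with the lowest p was Ndufa10 on spot 55, an accessory subunit of the membrane arm. In adults the male scores were 0.511, 0.586, 0.604, 0.567 and 0.712 and the female scores 0.818, 0.941, 1.06, 0.826 and 0.758, with no overlap between the sexes. How many of all clones had such a gap was not counted. In old mice the male scores were 0.824, 0.534, 0.786, 0.695 and 0.931 and the female scores 0.807, 0.858, 0.432, 0.464 and 0.624, and the sexes overlapped. Old minus adult was 0.158 in males and -0.243 in females, a sex difference of 0.401 ± 0.130 (SE; limma adjusted p = 0.993). It ran from 0.349 to 0.456 without any 1 of the 40 mice. The second Ndufa10 clone, spot 8490, gave a sex difference of -0.182 ± 0.304, of the opposite sign and far less precise, and 1 young male reached 1.46 on it. The other members were Ndufv3 (-0.225) and Ndufaf6 (0.432). In ATP synthase the lowest p values were those of Atp5mpl (-0.422) and Atp5o (0.289), which were -0.207 and 0.145 without old female 4.

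**Figure D4:**
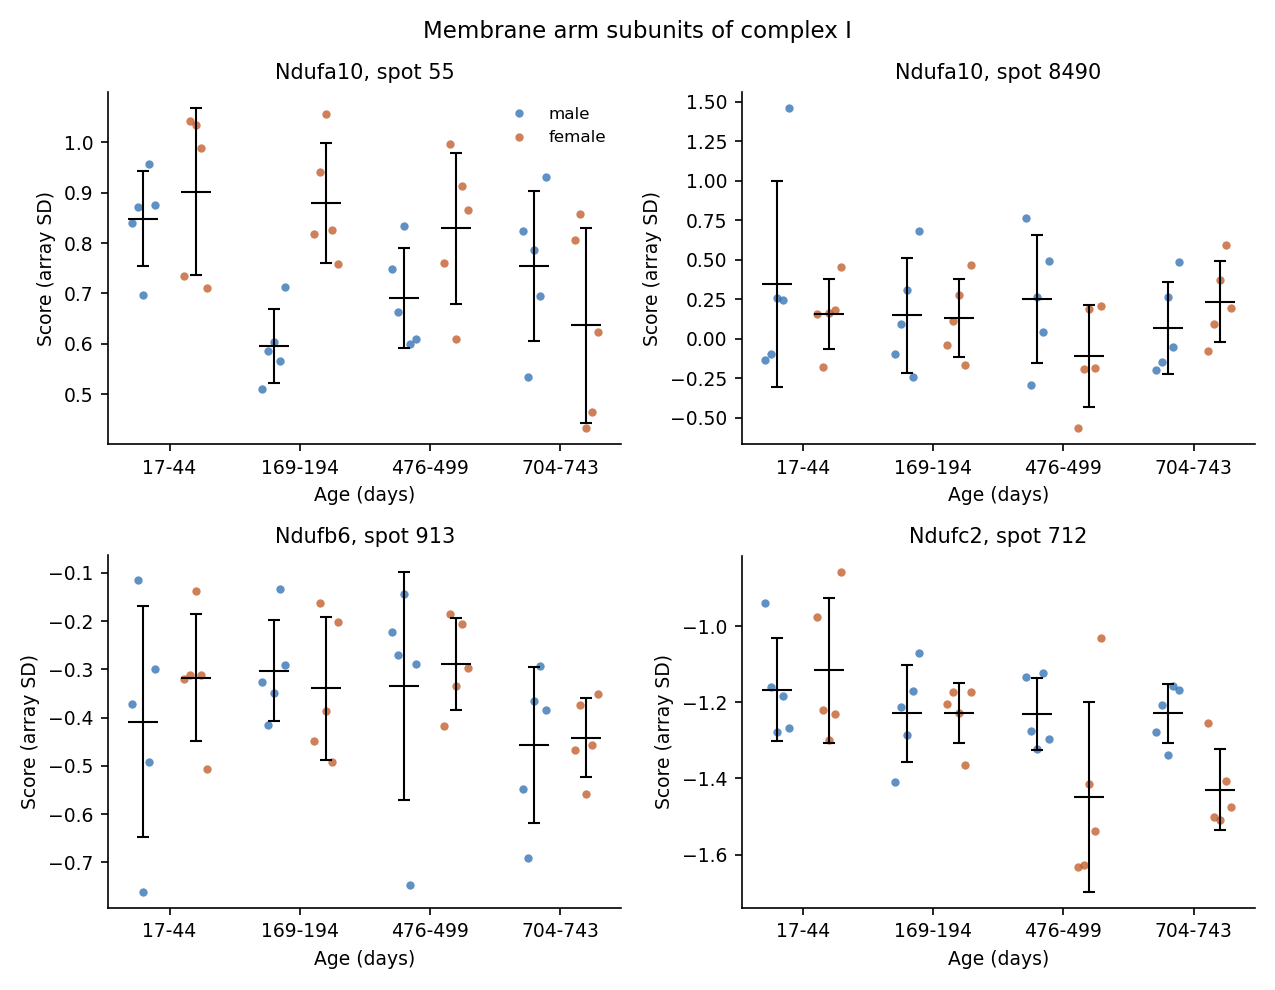
Scores (y axis, array SD) of both Ndufa10 clones, Ndufb6 and Ndufc2 against age group, for males and females. Each point is 1 mouse and black bars give the mean and SD of 5 mice. On spot 55 of Ndufa10 the 5 adult males (0.511 to 0.712) lie below the 5 adult females (0.758 to 1.06), a gap that spot 8490 does not show.

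The sex by age F test, which asks whether the sex difference varied over the 4 ages, had a p under 0.05 for 3.23% of all clones and called 0.0%. Its lowest p in complex I was again that of Ndufa10 on spot 55 (F = 3.30) and in ATP synthase that of Atp5mpl (F = 2.42), both with an adjusted p of 0.99998.

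The other genes of oxidative phosphorylation give the setting of these values. In old minus adult mice, 11 of 12 genes of complex IV, which passes electrons to oxygen, were lower (median -0.0694), as were 5 of 8 of complex III and cytochrome c (median -0.00939) and 3 of 5 of complex II (median -0.0369). Of 15 genes for mitochondrial abundance and biogenesis 11 were lower (median -0.0221), and of 3 complex I and ATP synthase helpers outside the name rule (Acad9, Atpaf2 and Dmac1) 2 were. No gene of these lists was called. A difference between complexes was not tested.

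Markers of cell types were few on the arrays. Of the 5 proximal tubule markers 3 were lower in old mice (median -0.00628), and their mean ran from -0.0440 to 0.128 in adults and from -0.0892 to 0.140 in old mice. Of 3 B and plasma cell markers 2 were higher in old mice, and their mean ran from -0.162 to 0.118 in adults and from -0.0507 to 0.203 in old mice. Ighm, the immunoglobulin heavy chain, differed by 0.341 in 10 of 10 couples and was not called (limma adjusted p = 0.241). That p was as low as any of the 16896 clones had in this comparison. Ighm cannot stand for the 3 markers, which did not all go the same way. Of 4 macrophage markers 3 were higher and of 3 podocyte markers 3 were lower, and 0 of 9 T and NK cell markers were measured. The part of cell composition in the differences of complex I and ATP synthase genes was not tested.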

How the data were processed

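Kidney RNA of 40 mice, labelled as radioactive cDNA, was hybridised to 80 filters of 8448 clones each. The deposited values are scores: per the values, the authors scaled each array to a mean of 0 and an SD of 1. Whether they took logs first is not given in the sources used here. Depth has no counterpart on these arrays, and the number of mice limits the precision. Clones were named through the platform annotation, and all 54 matched RefSeq by gene identifier. Scores were quantile-normalized within each filter set and fitted with limma 3.58.1 in R 4.3.3 to the 8 means of sex and age, and p-values were adjusted by Benjamini-Hochberg over 16896 clones. A gene with several clones was counted once, by its brightest clone. The slope used years of 365 days. Members and lists were chosen with earlier results of these data known. Named beyond the roles were up to 3 clones per complex and direction with the lowest p. The fit was tested on simulated data. A clone that was not called cannot be taken as unchanged. Alternatives were the values as deposited, normal scores, a block for serial numbers, array weights, no dim clones (lowest 25%), no mice of 17 to 21 days, no mice with outlying arrays, and each mouse left out. All value columns were used. Different mice are labelled, but nothing says that their RNA was handled separately.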

Additional observations from a re-analysis of the deposited data

Results flagged for a closer look

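The 28 clones named by rule and the means over both complexes, not all 54 clones, were searched for a mouse that stood apart. In 15 of 240 groups of 5 mice (6.25%, where chance gives about 1 in 20), 1 mouse stood apart from the other 4 of its sex and age. Old female 4 accounted for 6 of them, all in set B, where its array had the lowest mean correlation of the set (0.915). That mouse was at 0.77 on Atp5b spot 11647 and at 0.345 on Atp5b spot 12109, both below the others of its group. It was at 0.783 on Atp5g1 spot 12812, 0.168 on Ndufs3 and 0.685 on Atp5mpl, above the others, and at 0.644 on Atp5g3, below them. Old male 2, whose description names a young male, was at 1.20 on Atp5b spot 1190, and the nearest old male was at 0.931. On the same clone middle-aged female 2 was at 1.26.

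Young male 5, with an outlying array in set B, was at 0.509 on Ndufa8 and at 0.315 on Atp5c1 spot 12859, where middle-aged female 3 was at 0.801. Adult male 4, with an outlying array in set A, was at 0.617 on Atp5j2, which is in set B. The others were middle-aged male 4 on Ndufb6 (-0.747), adult male 1 on Ndufv1 (-0.404) and young female 1 on Atp5l spot 5629 (0.116).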

How the results depend on the processing

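Under 7 alternatives and with each of the 40 mice left out, none of the 54 members was called, and the lowest adjusted p was 0.556. Each clone named by rule was followed only in the comparison it was named for. There the sign turned for 2, both in old minus adult mice, and the complex medians near 0 named above also changed sign. In old minus adult mice 14 of all 54 clones changed sign without the mice named before the results. For Atp5mpl (0.0620) the old minus adult difference was -0.0152 with array weights and -0.0134 without the mice with outlying arrays. It ran from -0.0455 to 0.100 with single mice left out. For Ndufv2 (0.0256) it ran from -0.000449 to 0.0489 with single mice left out. The causes were not tested. In old minus adult mice, the count of lower clones at an unadjusted p under 0.05 was 5, and it was 6 with array weights, with 1 higher, and 2 without the mice with outlying arrays, both Atp5b. With the replicate block of serial numbers it was 5, the same clones, with -0.162 for Atp5b spot 1190, and the share of all clones was 1.82%. The score scale, unlike a fold, depends on the spread of each array.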
